A study of Mus musculus with 25 samples.

Results

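Beside Gpx4 itself, a small group of genes separated the hearts of GPx4+/- mice from those of WT mice on either diet. These genes were Hprt, Tdg, Gm9855, 1190007I07Rik and Gm4924, which are 5 of the 11984 genes tested. They were selected on the genotype contrast over the 20 mice without carnosine, in which 7 of 11984 genes (0.0584%) had an adjusted p under 0.05 with limma, the other 2 being Gpx4 and its pseudogene Gpx4-ps2. Their genotype differences are therefore given as a description, with no test, and the tests concern diet and carnosine. The mRNA of left ventricular tissue was sequenced in 25 male mice of a line kept by backcrossing to C57BL6/J, in 5 groups of 5. GPx4+/- mice, which carry 1 intact Gpx4 allele, and their WT littermates began a normal chow (CNTL) or a high fat high sucrose diet (HFHS) at 8 to 10 weeks of age and kept to it for 16 weeks. One further WT group on HFHS drank water with 80 mM carnosine, a histidyl dipeptide, from 7 weeks after the start of the diet (WT HFHS + Carnosine). GPx4+/- mice with carnosine were not analysed here, so genotype was not compared under carnosine.

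Hprt encodes hypoxanthine-guanine phosphoribosyltransferase, which returns hypoxanthine and guanine to the nucleotide pool (purine salvage), and its transcript often serves as a reference in quantitative PCR. Tdg encodes thymine DNA glycosylase, which removes thymine from G·T mismatches and the oxidised forms of 5-methylcytosine, and so takes part in base excision repair and active DNA demethylation. Gm9855 is a processed pseudogene, a copy of the Tdg mRNA inserted elsewhere in the genome. 1190007I07Rik encodes a small mitochondrial protein (brawnin) needed to assemble respiratory complex III, and Gm4924 is a predicted protein-coding gene.

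In GRCm38 with the GENCODE M21 annotation, 4 of the 5 genes lie on chromosome 10, the chromosome of Gpx4 (chr10:80047166-80056439, + strand). Gm4924 (chr10:82354255-82422882, + strand), 1190007I07Rik (chr10:82619851-82623228, - strand) and Tdg (chr10:82629828-82650799, + strand) start between 2.30 and 2.57 Mb beyond the end of Gpx4. 1190007I07Rik and Tdg are transcribed away from each other, with their annotated 5′ ends 6.6 kb apart, and Gm4924 ends 197 kb before 1190007I07Rik. Gm9855 (chr10:42054113-42055306, - strand) lies 38 Mb on the other side of Gpx4, and Hprt (chrX:52988137-53021659, + strand) on another chromosome.

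Because Gm9855 is a copy of Tdg, the sequences that tell them apart set what each value means. Over its 1194 bases, Gm9855-201 matched the main Tdg transcript, Tdg-201, with 9 substitutions and no gap (99.25% identity), all 9 in the coding part. Of these, 5 were also present in Tdg-ps, a copy on chromosome 15 (chr15:82516311-82519278, + strand), 3 in Gm5597, a copy on chromosome 7 (chr7:76244746-76245938, - strand), and 4 in Gm9855 alone. The windows below hold those 4, which are G877A, G879C, G1084A and G1101A, counted from 1 at the A of the Tdg start codon, with the base of Tdg first. The sequences are those of the GENCODE M21 transcripts. Each window is 31 bases long, the default word length of kallisto, with which the authors quantified transcripts (their setting is not given in the sources used here), and lies in the coding part of Tdg. In the copies, capitals mark bases that differ from Tdg, and in Tdg those that differ from Gm9855. The first window is in exon 8 (chr10:82647330-82647360, + strand).
Tdg-201: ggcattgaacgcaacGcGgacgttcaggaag
Gm9855-201: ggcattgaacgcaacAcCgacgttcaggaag
Tdg-ps-201: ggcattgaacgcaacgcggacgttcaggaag
Gm5597-201: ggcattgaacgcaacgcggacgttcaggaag

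The second window is in exon 10 (chr10:82648601-82648631, + strand) and also holds A1090G, a base that all 3 copies share.
Tdg-201: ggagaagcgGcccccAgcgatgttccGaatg
Gm9855-201: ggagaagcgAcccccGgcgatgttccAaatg
Tdg-ps-201: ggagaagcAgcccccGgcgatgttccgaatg
Gm5597-201: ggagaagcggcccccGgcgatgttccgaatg

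Only 111 of the 1164 words of 31 bases in Gm9855 (9.54%) occurred in no transcript of another gene on the same strand, and 971 occurred in Tdg. For Tdg, summed over its transcripts, 3188 of 5480 words (58.2%) were its own. Hprt shared none of its 1259 words with another gene. For 1190007I07Rik, 78.2% of 1221 words were its own, and its main partner was 1810014B01Rik, with 216 shared words. For Gm4924, 95.8% of 5638 words were its own, and the other 238 were spread over 1053 other genes. Words were counted per gene, so the share of own words in single transcripts is not given. Over the coding part that Tdg and Gm9855 share, their split therefore rests on reads that cover a few bases, whereas no word of Hprt occurred in another gene.

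Values are scaled TPM, the authors' TPM (the abundance of a transcript, corrected for its length, as a share of a fixed total per library) summed over the transcripts of a gene and divided by a scaling factor per library (0.864 to 1.16). The paper gives an approximate read depth per sample, but the depth of each library is unknown, since TPM keeps none. Gpx4, the targeted gene, lay at 251 to 383 in the 10 GPx4+/- mice and at 591 to 778 in the 15 WT mice, with no overlap. The summed level of 6 cardiomyocyte markers was 37710 to 47370 in every library. Markers of other tissue were uneven. The summed level of 8 hepatocyte markers was 1319 in GPx4+/- CNTL replicate 2, 108.7 and 68.1 in GPx4+/- HFHS replicates 1 and 3 and at most 24.5 elsewhere, and that of 5 atrial markers reached 4566, 7347 and 2695 in WT CNTL, GPx4+/- CNTL and GPx4+/- HFHS. The mitochondrial share of TPM was 31.3 to 48.7%. With any 1 of the 20 mice left out, GPx4+/- CNTL replicate 2 included, the genotype log2 differences described next stayed between 0.50 and 0.56 for Hprt, -0.53 and -0.49 for Tdg, 2.11 and 2.22 for Gm9855, -0.58 and -0.51 for 1190007I07Rik and 1.06 and 1.20 for Gm4924. The genes were chosen on these same mice, so these ranges do not speak for stability, and the part of the other tissue in the values was not tested. In bulk tissue, fewer cells of a type and less RNA per cell cannot be told apart.

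Hprt was higher in GPx4+/- hearts. On CNTL its level was 34.6, 35.9, 34.9, 32.8 and 30.9 in WT mice and 45.9, 48.6, 48.7, 43.4 and 45.5 in GPx4+/- mice, in the order of the replicate numbers. On HFHS it was 31.8, 29.4, 31.5, 34.9 and 30.0 in WT mice and 41.8, 56.3, 45.1, 47.8 and 52.1 in GPx4+/- mice. The 10 GPx4+/- values all lay above the 15 WT values, which include the 33.8, 36.1, 32.7, 29.1 and 35.4 of the carnosine group. The mean of GPx4+/- mice was 1.45 times that of WT mice without carnosine, and the log2 difference over both diets was 0.53 (standard error 0.049, limma). Among all 5 group means, the order was GPx4+/- HFHS (48.6 ± 5.72, SD, n = 5), GPx4+/- CNTL (46.4 ± 2.24), WT CNTL (33.8 ± 1.99), WT HFHS + Carnosine (33.4 ± 2.75) and WT HFHS (31.5 ± 2.16). Neighbours in this order within a genotype differed by less than the larger of their SDs.

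Tdg was lower in GPx4+/- hearts. Its level on CNTL was 7.10, 8.14, 7.76, 6.99 and 7.25 in WT mice and 5.09, 5.03, 5.19, 4.76 and 4.46 in GPx4+/- mice. On HFHS the WT values were 7.62, 7.34, 6.72, 8.15 and 6.83, and the GPx4+/- values were 4.65, 5.63, 4.38, 5.39 and 5.55. The highest GPx4+/- value was below the lowest of all 15 WT mice, which was 5.84 in the carnosine group (6.92, 6.76, 6.98, 5.84 and 9.38). Over both diets the log2 difference was -0.52 (standard error 0.051), with a GPx4+/- mean at 67.8% of that in WT mice without carnosine.

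Gm9855 was higher in GPx4+/- hearts. It was low in WT hearts, at 0.0922, 0.140, 0.230, 0.207 and 0.0970 on CNTL, 0.0807, 0.178, 0.0772, 0.271 and 0.595 on HFHS and 0.185, 0.291, 0.0682, 0.224 and 0.106 with carnosine. In GPx4+/- hearts it was 2.89, 2.43, 1.73, 2.53 and 2.55 on CNTL and 2.69, 2.80, 2.78, 2.37 and 2.74 on HFHS. The ranges (0.0682 to 0.595 in WT and 1.73 to 2.89 in GPx4+/- mice) were far apart, and the ratio of means was 13.0. The log2 difference of 2.15 (standard error 0.11) is on the log2(scaled TPM + 0.5) scale, which understates the change of a gene this low. Gm9855, like Gm4924, passed the filter of a mean of 1 only through the GPx4+/- groups.

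The sum of Tdg and Gm9855 did not separate the genotypes. On CNTL it was 7.60 ± 0.501 for WT and 7.33 ± 0.424 for GPx4+/- mice (SD, n = 5). On HFHS it was 7.57 ± 0.582 for WT, 7.79 ± 0.559 for GPx4+/- and 7.35 ± 1.27 for carnosine-treated mice. The mean of GPx4+/- mice was 99.7% of that of WT mice without carnosine, and the ranges overlapped (6.92 to 8.42 against 6.80 to 8.42). What differed was the share assigned to Gm9855, which was 0.968 to 8.02% in WT and 25.0 to 38.8% in GPx4+/- mice. With the copies Tdg-ps and Gm5597 added, the mean of GPx4+/- mice came to 102.3% of that of WT mice. TPM is divided by transcript length (1194 bases for Gm9855-201 and 2959 for Tdg-201), so the sum is not fixed when reads move from one gene to the other. The origin of the reads assigned to Gm9855 was not tested, since no reads were analysed here.

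**Figure D1:**
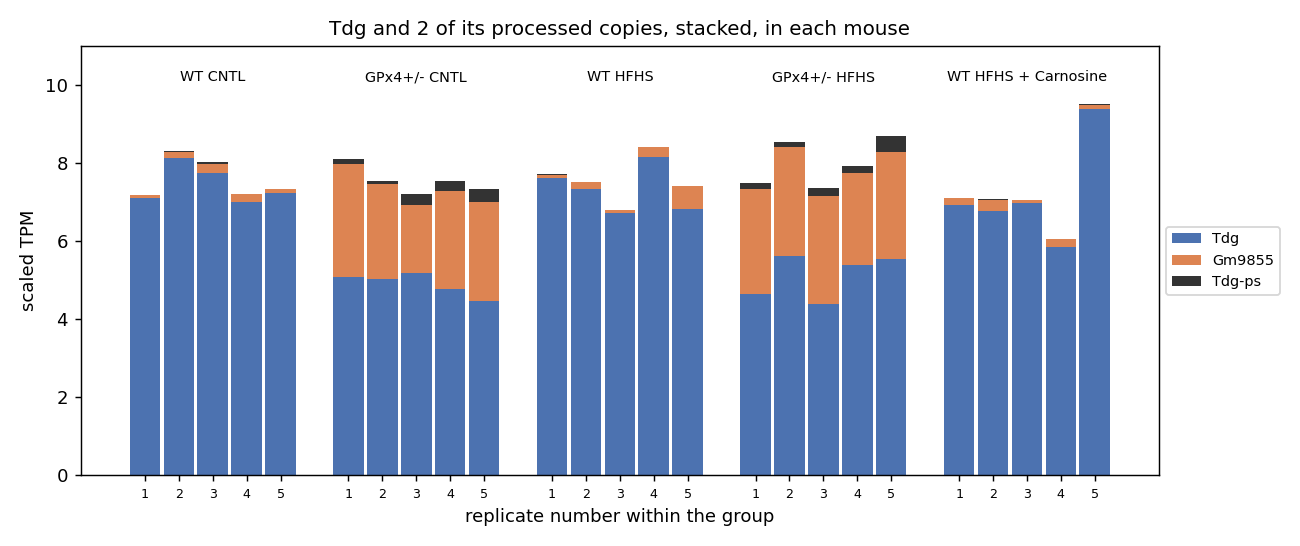
Stacked bars of scaled TPM for Tdg, Gm9855 and Tdg-ps in each of the 25 mice, by group and replicate number. The bars reach similar heights in both genotypes, with means of 7.59 for WT and 7.56 for GPx4+/- mice without carnosine for Tdg plus Gm9855, while the Gm9855 part is at least 25.0% of that sum in each GPx4+/- mouse and at most 8.02% in each WT mouse.

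1190007I07Rik, the complex III assembly gene beside Tdg, was lower in GPx4+/- hearts. On CNTL its level was 17.3, 16.6, 16.7, 17.0 and 21.1 in WT mice and 12.4, 12.6, 11.0, 13.6 and 13.2 in GPx4+/- mice. On HFHS it was 20.0, 22.5, 20.5, 16.7 and 20.2 in WT mice and 14.4, 13.5, 12.0, 12.1 and 12.4 in GPx4+/- mice. The genotypes did not overlap, also against the carnosine group (18.9, 20.0, 16.2, 19.3 and 15.3), although the gap between 14.4 and 15.3 was narrow. Over both diets the log2 difference was -0.55 (standard error 0.057), close in size to that of Tdg.

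Gm4924 was low in all hearts and higher in GPx4+/- ones. Its level was 0.419, 0.824, 0.743, 0.457 and 0.615 in WT CNTL and 1.23, 2.04, 1.53, 1.70 and 2.86 in GPx4+/- CNTL mice. On HFHS it was 0.356, 0.617, 0.299, 0.610 and 0.497 in WT and 1.45, 2.46, 0.983, 1.48 and 2.56 in GPx4+/- mice. These 4 groups did not overlap between genotypes, but the carnosine group (1.13, 0.663, 0.607, 0.857 and 1.30) reached into the GPx4+/- range, with 2 of 5 values above 0.983. The log2 difference over both diets was 1.13 (standard error 0.14).

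**Figure D2:**
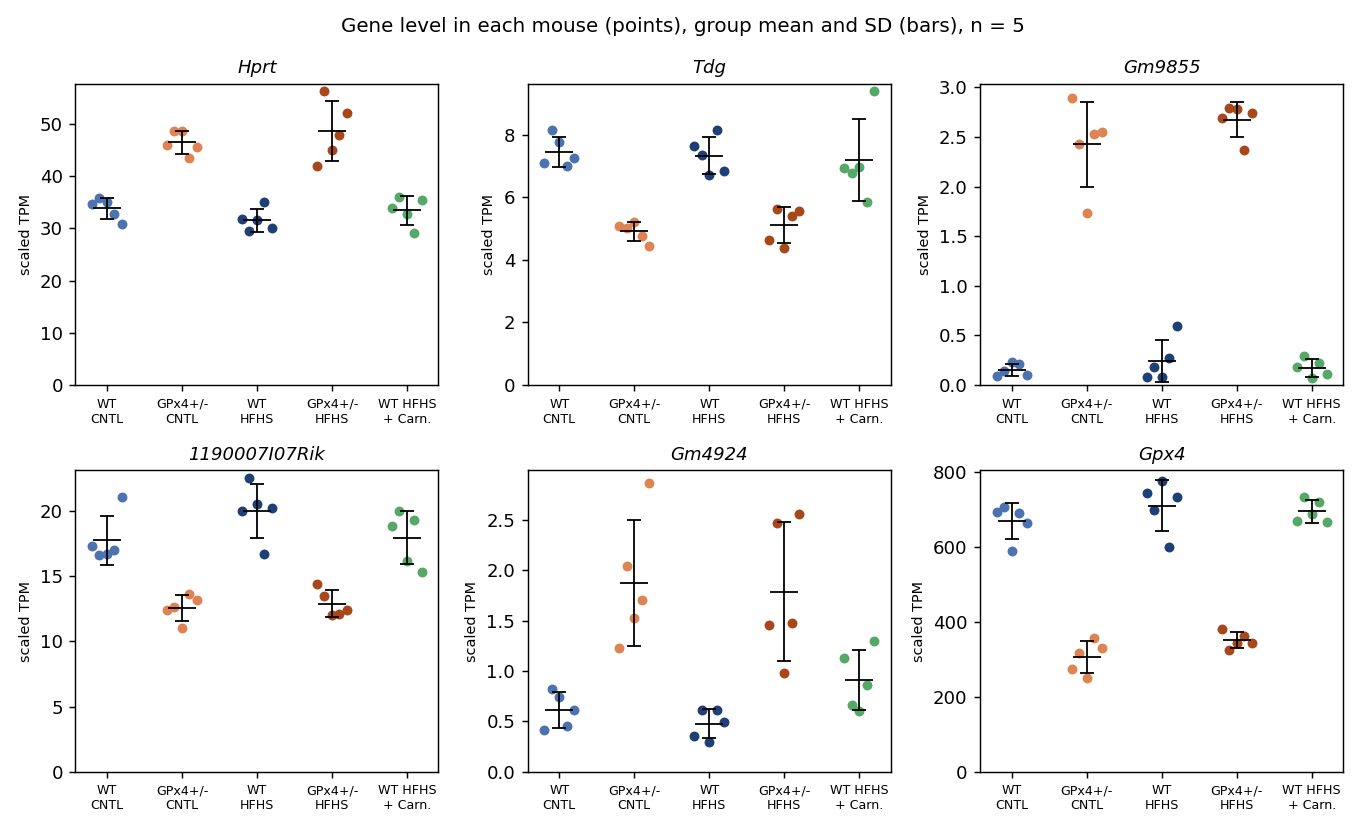
Scaled TPM of the 5 genes and of Gpx4 in each mouse (points), with the group mean and SD (bars, n = 5), for the 5 groups. Hprt, Gm9855 and Gm4924 sit higher and Tdg and 1190007I07Rik lower in both GPx4+/- groups, and among the 5 genes the carnosine group meets the GPx4+/- range for Gm4924 alone.

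Gm4924 was the last gene inside the threshold by its p. The next 3 genes outside it were Ehbp1, Zfp938 and Enpep, with log2 differences of 0.24, 0.27 and 0.31, and in each the ranges of the genotypes overlapped. Zfp938, which lies 113 kb from Gm4924, is the tested gene nearest to it on that side.

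At the level of single transcripts, the lower level of 1190007I07Rik in GPx4+/- mice was seen in its most abundant one on both diets. 1190007I07Rik-201 held 46.6% of the gene's scaled TPM and on CNTL was 8.99 ± 2.49 for WT and 4.68 ± 0.434 for GPx4+/- mice (SD, n = 5), and on HFHS 9.51 ± 1.60 and 5.52 ± 1.04. 1190007I07Rik-203, with 35.7%, was 5.88 ± 1.30 and 5.51 ± 0.825 in these groups on CNTL and 6.87 ± 1.09 and 4.21 ± 1.28 on HFHS. On CNTL the difference in the latter transcript was within its SD. The other 3 transcripts each had a mean of at most 1.19. Of these, 1190007I07Rik-205 had higher means in GPx4+/- than in WT mice, at 1.17 against 0.930 on CNTL and 1.61 against 1.39 on HFHS. These differences were within the SD, and the rest of the 3 had lower means in GPx4+/- mice. For Tdg, Tdg-201 held 57.2% and on CNTL was 4.52 ± 0.327 for WT and 2.69 ± 0.665 for GPx4+/- mice, and on HFHS 3.94 ± 0.435 and 2.74 ± 0.222. Tdg-208, a transcript of 3502 bases, was 0.527 ± 0.165 in WT and 0.658 ± 0.309 in GPx4+/- mice on CNTL. Tdg-209 had lower means in GPx4+/- than in WT mice, at 0.286 against 0.741 on CNTL and 0.291 against 0.777 on HFHS. Its ranges overlapped between genotypes on both diets. Gm4924-205, the single Gm4924 transcript with a mean of at least 0.5, held 52.8% of the gene. On CNTL it was 0.0838 to 0.550 in WT and 0.593 to 2.23 in GPx4+/- mice, but on HFHS the genotypes overlapped, at 0 to 0.399 in WT, 0 to 1.19 in GPx4+/- and 0.374 to 0.931 in carnosine-treated mice. Hprt and Gm9855 had 1 listed transcript each.

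**Figure D3:**
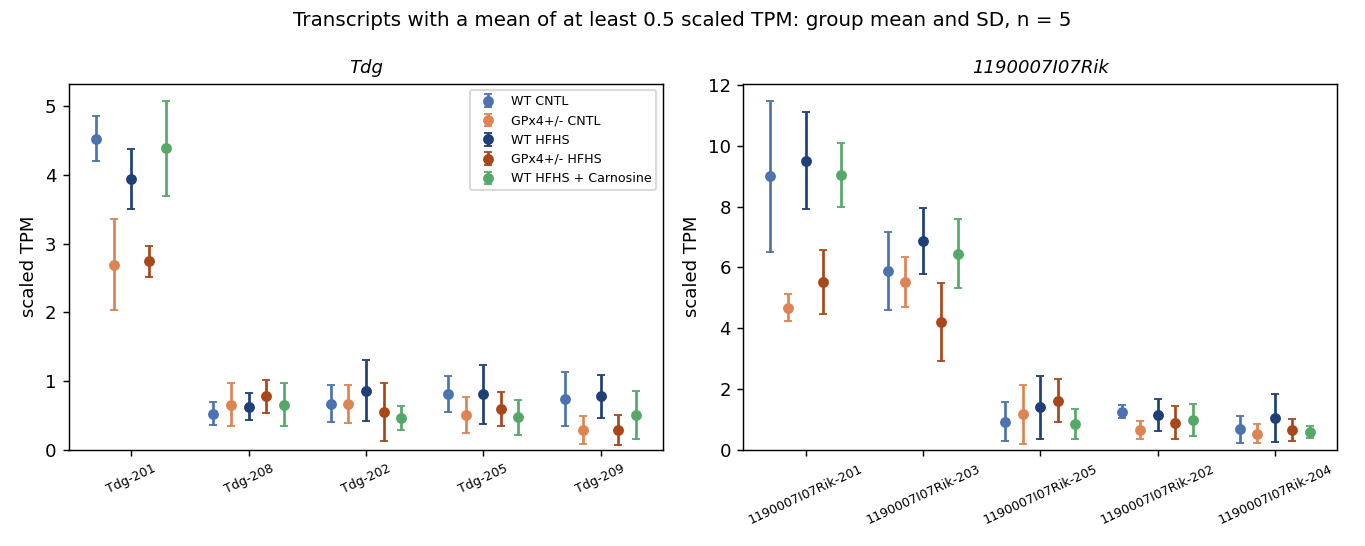
Group mean and SD (n = 5) of scaled TPM for the Tdg and 1190007I07Rik transcripts with a mean of at least 0.5, coloured by group. In absolute scaled TPM, within each gene and on both diets, the genotype means are farthest apart in Tdg-201 and 1190007I07Rik-201, and the low transcripts overlap between groups.

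The first tested question was whether the HFHS diet moved these genes. None of the 5 was called in the diet contrast over both genotypes, where 8.33% of all genes were called, nor in WT (1.18% of all genes) or in GPx4+/- mice (3.34%), by limma with Benjamini-Hochberg adjustment over all genes. At an unadjusted p under 0.05 the count was also 0 of 5 in each of the 3 contrasts, against 2933, 1979 and 2199 of all 11984 genes. For Hprt the log2 difference between HFHS and CNTL was -0.10 in WT mice (95% interval -0.24 to 0.045) and 0.059 in GPx4+/- mice (-0.085 to 0.20). For Tdg it was -0.022 (-0.17 to 0.13) and 0.051 (-0.10 to 0.20). 1190007I07Rik had the lowest adjusted p of the 5 in WT mice, with 0.17 in WT mice (-0.0012 to 0.34, adjusted p = 0.306) and 0.038 in GPx4+/- mice (-0.13 to 0.21). The intervals were wider for the low genes, at -0.093 to 0.37 for Gm9855 and -0.43 to 0.17 for Gm4924 over both genotypes. For the other 3 genes they were -0.12 to 0.082 for Hprt, -0.092 to 0.12 for Tdg and -0.017 to 0.22 for 1190007I07Rik.

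The second question was whether the diet acted differently in the 2 genotypes. The difference of the diet effect was called for 0 of the 5 genes, and for 0 of 11984 genes (0%) with limma, while 856 of all genes and 0 of the 5 had an unadjusted p under 0.05. It was 0.16 for Hprt (95% interval -0.046 to 0.36), 0.073 for Tdg (-0.14 to 0.29) and -0.13 for 1190007I07Rik (-0.37 to 0.11). The intervals were widest for Gm9855 (-0.47 to 0.44) and Gm4924 (-0.48 to 0.72). Side by side, the genotype differences on CNTL and on HFHS were 0.45 and 0.61 for Hprt, -0.56 and -0.48 for Tdg, 2.16 and 2.14 for Gm9855, -0.48 and -0.61 for 1190007I07Rik, and 1.07 and 1.19 for Gm4924, on the log2 scale.

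The third question was whether carnosine moved these genes in WT mice on HFHS. The call was made for 0 of the 5, and for 0 of 11984 genes (0%), with 505 of all genes at an unadjusted p under 0.05. One of the 5, Gm4924, was among those 505. It was 0.910 ± 0.297 with carnosine and 0.476 ± 0.145 without (SD, n = 5), a log2 difference of 0.52 (95% interval 0.15 to 0.89 and limma adjusted p = 0.947), and 4 of the 5 carnosine values were above the highest of the WT HFHS group. After adjustment it did not pass. The WT HFHS mice were also among those on which the 5 genes were chosen, while the carnosine mice were not. Low values of Gm4924 in WT HFHS mice would both favour its choice and raise this difference. Its interval is therefore not independent of the choice, and the same reference mice enter the carnosine differences of the other genes. The means of Gm4924 and Gm9855 in both these groups were under the filter's minimum of 1, so their WT values rest on levels that the filter alone would not have kept. The other differences were 0.082 for Hprt (-0.068 to 0.23), -0.041 for Tdg (-0.28 to 0.19), -0.10 for Gm9855 (-0.54 to 0.34) and -0.15 for 1190007I07Rik (-0.36 to 0.051). The spread of Tdg was widest with carnosine (SD 1.31), where replicate 5 reached 9.38 and replicate 4 was 5.84.

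**Figure D4:**
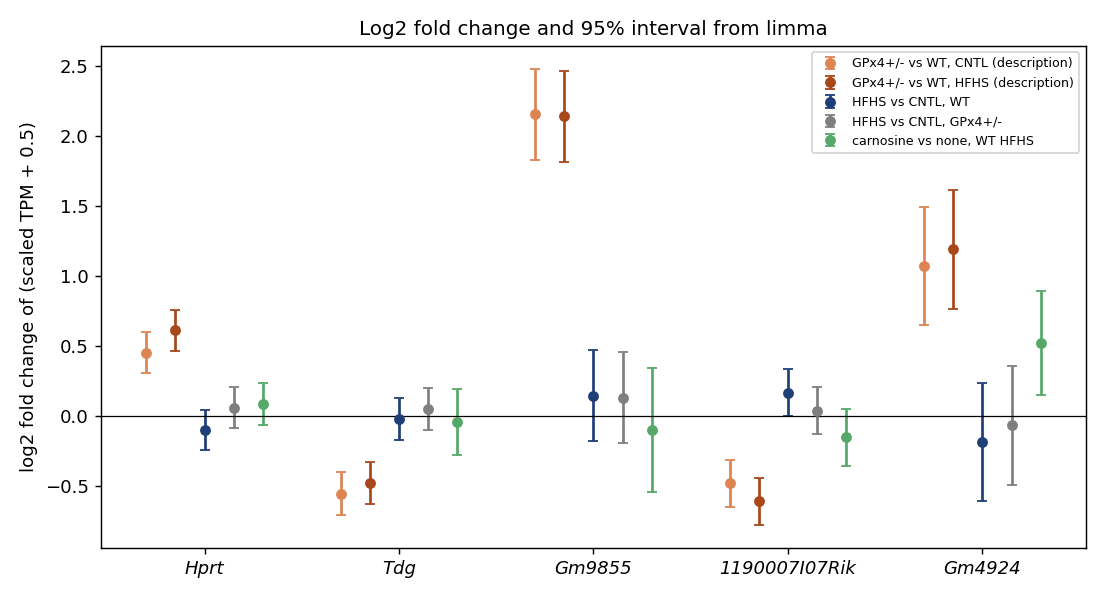
Log2 fold change of (scaled TPM + 0.5) with its 95% interval from limma for the 5 genes, between genotypes on each diet (a description, since it chose the genes), between diets in each genotype and with against without carnosine. The genotype differences run from -0.61 to 2.16, the diet intervals include 0, and the carnosine interval excludes 0 for Gm4924 alone, before adjustment. The WT HFHS mice, the reference for carnosine, were also among those on which the genes were chosen.

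The sum of Tdg and Gm9855 was tested on its own as a single value, which still depends on how reads were split between genes of unequal length. Between HFHS and CNTL its log2 mean differed by -0.0057 in WT mice (standard error 0.061, exact two-sided permutation p = 0.929, n = 5 and 5) and by 0.081 in GPx4+/- mice (standard error 0.056, exact permutation p = 0.175). With carnosine it differed by -0.051 (standard error 0.11, exact permutation p = 0.651). Adjusted over these 3 tests, p was 0.929, 0.524 and 0.929, and 0.00794 is the smallest p this design allows.

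The genes around the 5 were read from all tested genes within 500 kb. There were 17 such neighbours, and 0 of them were called for diet, in either direction, in any of the 3 diet contrasts or for carnosine, where 8.33%, 1.18%, 3.34% and 0% of all genes were called, shares at which a list this short holds few calls or none. Their median log2 difference between genotypes over both diets was -0.0011 (range -0.11 to 0.27), against -0.00053 over all genes tested. Phf6 and Fam122b, on either side of Hprt, had genotype differences of -0.00030 (standard error 0.094) and 0.27 (standard error 0.16). Armc2 and Foxo3, on either side of Gm9855, had -0.11 (standard error 0.082) and -0.011 (standard error 0.077). Glt8d2, which overlaps the end of Tdg on the other strand, had 0.041 (standard error 0.19). On chromosome 10, in a window chosen after the values were seen, the 166 tested genes within 5 Mb of Gpx4, without the 5 genes, Gpx4 and Gpx4-ps2, had a median absolute log2 difference of 0.0486, against 0.0431 for the other 406 genes of the chromosome and 0.0429 for all genes tested.

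**Figure D5:**
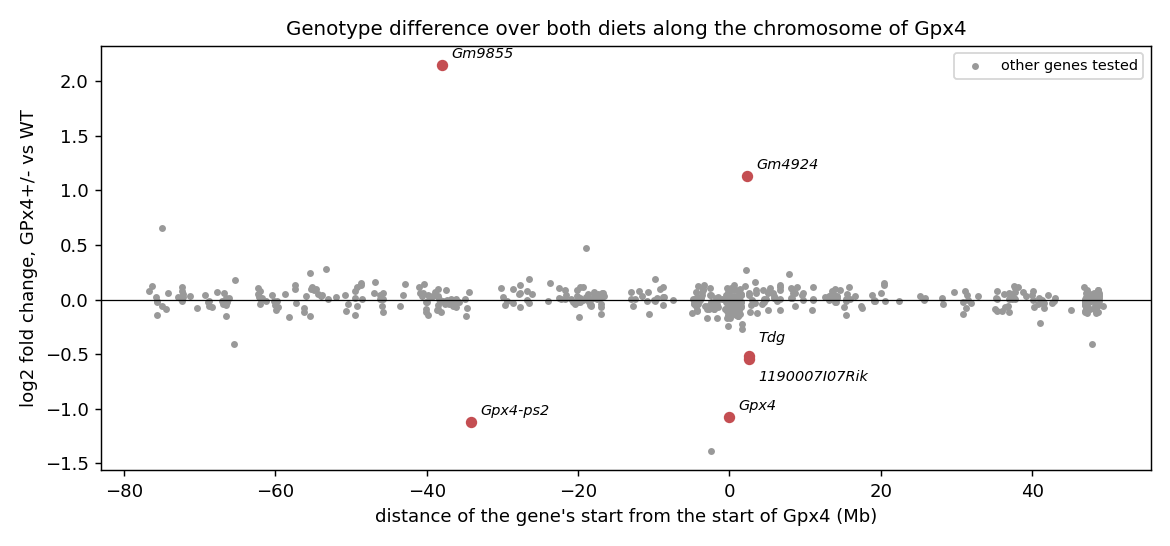
Log2 fold change between GPx4+/- and WT mice over both diets for each tested gene of chromosome 10, against the distance of its start from that of Gpx4 (Mb). Most points form a band around 0. The points farthest from 0 are the named genes and, singled out after their values were seen, Gm49325 (log2 difference -1.39, at -2.44 Mb) and Gm48836 (0.65, at -75.0 Mb), which were not called and differ from 0 by more than Tdg (-0.52) and 1190007I07Rik (-0.55) do.

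In the pathways of Hprt, Tdg and 1190007I07Rik, calls were made for diet alone, where 8.33% of all genes were called. Of 30 genes of purine salvage and synthesis, 27 were tested, and with HFHS over both genotypes 1 was called higher and 4 lower (median log2 difference -0.035, against -0.0024 for all genes). Ppat, which starts purine synthesis, fell by 0.30 (standard error 0.052, limma adjusted p = 0.00129), and Impdh2, which makes the guanine nucleotide precursor, fell by 0.18 (standard error 0.037, adjusted p = 0.006). Slc29a1, a nucleoside transporter, rose by 0.17 (standard error 0.044, adjusted p = 0.025), but its adjusted p was 0.338 without the scaling factors and 0.0738 after quantile normalization. Of 25 genes of base excision repair and active demethylation, 21 were tested, of which 0 were called higher and 2 lower (median -0.072). Tet2, which oxidises 5-methylcytosine ahead of Tdg, fell by 0.25 (standard error 0.069, adjusted p = 0.0309), and Xrcc1, a repair scaffold, fell by 0.17 (standard error 0.050, adjusted p = 0.0451, and 0.0781 without scaling). All 16 genes of complex III and its assembly were tested and 0 were called (median 0.027). With carnosine, 0 genes of any list were called. Between genotypes, the median log2 differences of these lists were -0.010, 0.013 and -0.027.

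The genes most like each of the 5 over the 25 mice were read from Pearson correlations of log2 values, as a description with no test. On the values themselves, which carry the genotype difference that chose the genes, Hprt was closest to Gm9855 (r = 0.895), Gm4924 (0.850) and Zfp938 (0.785), and 1190007I07Rik to Gpx4 (0.915), Gpx4-ps2 (0.739) and Cnnm2 (0.691). Tdg was closest to Gpx4-ps2 (0.875), Gpx4 (0.814) and 1190007I07Rik (0.679). Gm9855 was closest to Hprt (0.895), Gm4924 (0.812) and Zfp938 (0.610), and Gm4924 to Hprt (0.850), Gm9855 (0.812) and Exoc2 (0.709). On deviations from the group means, where genotype is removed, none of the 5 was among the 3 nearest to another, and r between pairs of the 5 ran from -0.533 (Tdg and 1190007I07Rik) to 0.685 (Hprt and Tdg, which were at -0.695 on the values themselves). Hprt was then closest to Cdc42 (0.901), Tm9sf3 (0.883) and Ube2n (0.881), Tdg to 1190002N15Rik (0.859), Vcan (0.784) and Tm9sf3 (0.779), and 1190007I07Rik to Scfd2 (0.889), Flot1 (0.778) and Timm29 (0.772). Gm9855 was closest to AI987944 (0.761), Ing1 (0.697) and Maml2 (0.668), and Gm4924 to Otulin (0.830), Mettl16 (0.800) and AI597479 (0.748). These points share libraries and their composition.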

How the data were processed

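Left ventricular poly(A) RNA was sequenced from stranded libraries. Per the submitters' processing notes, the authors used kallisto 0.43.1 and sleuth 0.30.0 with GRCm38, and deposited 1 table of TPM per transcript, without counts, so depth is unknown. Whether strand was used in the quantification is not given in the sources used here. Of 119215 transcripts, 116772 were matched to GENCODE M21 by identifier without version. Gene TPM were summed and scaled by median ratios over 11879 genes, those with a mean of at least 1 and above 0 in every library, the set used in an earlier processing of these data. The 11984 genes averaging 1 scaled TPM or more in the 25 mice entered the test, made with limma 3.58.1 (R 4.3.3, trend) on log2(scaled TPM + 0.5), in 1 fit of the 20 mice without carnosine and 1 of the 10 carnosine and WT HFHS mice, with Benjamini-Hochberg adjustment and a threshold of 0.05. This replaces the count test of the study. The scripts were tested on simulated data. Named were the 5 genes, their transcripts with a mean of at least 0.5, Gpx4, for each gene the 3 most correlated genes, up to 3 called genes per pathway list, and the nearest tested genes. The members and lists were chosen with earlier results of these data known. Libraries numbered within a group were taken as separate mice, as the labels number them, so p-values measure the spread between these libraries.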

Additional observations from a re-analysis of the deposited data

Results flagged for a closer look

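Of 30 groups of 5 mice checked (the 5 genes and the sum of Tdg and Gm9855 in each group), 2 held a mouse whose gap to its nearest neighbour was over 0.71 of the whole range, and chance gives about 1 such group in 20. In WT CNTL, 1190007I07Rik was 21.06 in replicate 5 and at most 17.3 in the others. In GPx4+/- HFHS, Gm9855 was 2.366 in replicate 4 and at least 2.69 in the others. Tdg-ps, a Tdg copy too low to be tested and singled out after its values were seen, had a mean of 0.211 scaled TPM in GPx4+/- mice (0.0834 to 0.399) and at most 0.0404 in the 15 WT mice, where it was listed at 0 in most.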

How the results depend on the processing

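Across all alternatives run, 0 of the 5 genes were called for diet, for the difference of the diet effect or for carnosine. With a pseudocount of 0.1 the genotype log2 differences on CNTL, on HFHS and over the diets together grew to 3.34, 3.22 and 3.28 for Gm9855 and to 1.45, 1.67 and 1.56 for Gm4924. With the most abundant transcript alone they were -0.68 for Tdg on CNTL, and -0.84 on CNTL and -0.79 over both diets for 1190007I07Rik. With a minimum of 5, Gm9855 and Gm4924 could not be tested, nor could Gm4924 by its transcript. Scaling over the 10830 genes at 1 TPM or more in every library, chosen after seeing the data, moved no factor by over 0.364% and changed no call of these genes. Of uncalled values, those without scaling changed sign for Tdg (-0.033 for diet over both genotypes, -0.047 in GPx4+/- and -0.028 for the difference of the diet effect), Hprt (-0.048 in GPx4+/-), 1190007I07Rik (-0.066 in GPx4+/-) and the sum of Tdg and Gm9855 (-0.020 in GPx4+/-). By transcript they did so for Tdg (-0.069 for diet over both genotypes, 0.13 for carnosine) and 1190007I07Rik (0.11 for the difference of the diet effect). The number of genes called for diet in WT, 142, became 43 without a minimum, 38 without scaling, 47 by transcript, 405 with array weights and 68 with the replicate block, and in GPx4+/- mice 400 became 235 without a minimum and 226 by transcript. The causes were not tested. The labels name nothing that mice of the same replicate number share. Same-numbered deviations correlated at -0.34 to 0.23, over 0.1 in 9 of 50 pairs, and a sample was closest to its own number in 7 of 50 comparisons. A shared litter or batch was not tested.

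With each mouse left out in turn, the WT diet count ran from 36 to 202 (under 95 without WT CNTL replicates 1, 2, 4 or 5 or WT HFHS replicates 2, 3, 4 or 5), and the GPx4+/- one from 191 to 484 (at most 255 without CNTL replicates 1, 3 or 4 or HFHS replicates 1 or 5). The count for the difference of the diet effect was 0 to 1, the latter without WT CNTL replicate 3. The sum of Tdg and Gm9855 ran from -0.042 to 0.030 for diet in WT and from -0.14 to 0.010 for carnosine. For diet over both genotypes Hprt ran from -0.048 to 0.0057 and Tdg from -0.0037 to 0.039. In WT, Tdg ran from -0.059 to 0.0086 and Gm9855 from -0.0087 to 0.22. In GPx4+/-, 1190007I07Rik ran from -0.0071 to 0.066 and Gm4924 from -0.19 to 0.075. For the difference of the diet effect Gm9855 ran from -0.11 to 0.14, and for carnosine Tdg ran from -0.14 to 0.024 and Gm9855 from -0.18 to 0.050. TPM hold no depth of single libraries, so the counting error of low values, such as those of Gm9855 in WT mice, was not estimated.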
